A study of Rattus norvegicus with 18 samples.

Results

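A panel of 53 cell cycle and proliferation genes was followed in primary rat astrocytes and microglia exposed to amyloid-β (Aβ) fibrils. The genes were taken by symbol and split by the stage their products serve, with 12 genes of G1 and the entry into the cycle, 17 genes of S phase (DNA replication) and 24 genes of mitosis. A count was given for 52 of the 53, and the S phase gene E2f8 was left out because its symbol had no row. RNA sequencing covered 18 libraries of wild-type Sprague Dawley glia prepared from the cortex of pups at postnatal day 2, with 3 libraries for each of 6 groups: untreated astrocytes, astrocytes with Aβ42 fibrils, astrocytes with Aβ40 fibrils, and the same 3 groups of microglia. All cultures were moved to serum-free medium 3 h beforehand, the fibrils were given at 25 µM, and RNA was taken at 24 h. The untreated libraries serve as control for both fibrils within a cell type, so the results for the 2 fibrils share their control libraries. The labels do not say whether the 3 libraries of a group came from separate animals or cultures, so each p-value measures only the spread between these libraries.

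The cell cycle is run by cyclin-dependent kinases (CDKs), each switched on by a cyclin partner and held back by CDK inhibitors. In G1, D-type and then E-type cyclins lift the brake that the retinoblastoma proteins place on E2F transcription factors, E2F targets then supply the replication machinery of S phase, and a later set of genes, bound by B-Myb and FoxM1, drives mitosis. Cultured newborn astrocytes and microglia divide, and the mitotic genes are read in tissue and culture as markers of dividing cells. In RNA from whole cultures, fewer dividing cells and less RNA per dividing cell cannot be told apart.

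Counts assigned to genes ran from 3674043 to 19013919 per astrocyte library and from 2271834 to 22274367 per microglia library, so the limit of 3 counts for a listed 0 lay between 0.130 and 1.38 CPM (counts of a gene per 1000000 counts on genes). Replicate 2 of the untreated astrocytes and replicate 1 of the Aβ42-treated microglia stood apart from the other libraries of their groups (chi-square per degree of freedom of 28.3 and 44.3 against 10.7, and of 22.9 and 22.4 against 7.66), and results that rest on them are given with and without them. Astrocyte markers summed to between 5964 and 11650 CPM in the astrocyte libraries and to between 274 and 331 CPM in the microglia libraries, while 12 microglial markers summed to between 36.7 and 574 CPM and between 2347 and 10040 CPM. Under fibrils the microglial homeostatic receptor Cx3cr1 was near 0 in both cultures, with 11 and 3 counts in sum over the 3 libraries of Aβ42- and Aβ40-treated microglia against 736 over the untreated ones, and with 1 and 2 counts against 500 in astrocytes.

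Levels are given as CPM, scaled for library size and composition within each cell type, with replicates in the order 1, 2 and 3. Changes are log2 fold changes ± SE from edgeR's quasi-likelihood test, with p-values adjusted over all tested genes by the Benjamini-Hochberg method, and a gene is said to rise or fall only where its adjusted p was under 0.05. The first comparison asked how the G1, S phase and mitosis genes answered each fibril. In astrocytes with Aβ42 fibrils, 42 of the 52 tested genes of the panel fell and none rose, against 20.4% lower and 16.5% higher among all 11690 tested genes. At an unadjusted p under 0.05, 1 gene was higher, and DESeq2 called 1 gene higher and 42 lower. The fall covered 23 of 24 mitosis genes (median log2 fold change -2.51), 14 of 16 S phase genes (median -1.42) and 5 of 12 G1 genes (median -0.20), beside a median of -0.00 over all tested genes. The treated libraries lay wholly below the untreated ones for those 42 genes and wholly above them for 0, where 23% and 22.7% of all tested genes did so. With Aβ40 fibrils, 43 of the 52 genes fell and 1 rose, against 18.4% and 14.9% of all genes, with 23 of 24 mitosis genes (median -2.09), 14 of 16 S phase genes (median -1.56) and 6 of 12 G1 genes (median -0.43) lower. Here 43 genes lay wholly below and 1 wholly above the untreated libraries, against 21.3% and 21.9% of all genes. Without untreated replicate 2, 43 and 44 genes fell with Aβ42 and Aβ40 fibrils, 1 rose with each, and the share of all genes that was lower was 24.8% and 22.2%.

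In microglia, where 51 of the genes had enough counts for the test, 42 fell and 3 rose with Aβ42 fibrils, against 26.6% lower and 27.1% higher among all 10837 tested genes. All 23 tested mitosis genes fell (median log2 fold change -1.13), as did 12 of 16 S phase genes (median -1.01) and 7 of 12 G1 genes (median -0.60). Libraries did not overlap for 42 genes that were lower and 3 that were higher, against 28.2% and 25.8% of all genes. Without Aβ42 replicate 1 the count of called genes was 44 lower and 3 higher, against 35.7% and 34.6% of all genes. With Aβ40 fibrils 35 genes fell and 3 rose, against 21.4% and 19.6% of all genes, among them 20 of 23 mitosis genes (median -0.95), 10 of 16 S phase genes (median -0.84) and 5 of 12 G1 genes (median -0.44) that fell. Libraries did not overlap for 39 lower and 3 higher genes, against 30.5% and 29% of all genes. In microglia 25 genes fell 2-fold or more with Aβ42 fibrils and 18 with Aβ40 fibrils, compared with 35 in astrocytes with either fibril. The share of all genes that fell 2-fold is not given here, so these counts do not set the panel apart from other genes. The mean log2 CPM over the mitosis genes was between 5.42 and 5.51 in the untreated astrocyte libraries and between 3.28 and 3.36 with Aβ42 fibrils, a difference of -2.14 ± 0.06 (SD, n = 3 and 3). In microglia the same mean was between 4.30 and 4.56 untreated and between 3.09 and 3.34 with Aβ42 fibrils, a difference of -1.18 ± 0.19. For the S phase and G1 genes these differences were -1.48 ± 0.07 and -0.51 ± 0.15 in astrocytes and -0.62 ± 0.15 and -0.48 ± 0.12 in microglia. With Aβ40 fibrils the mitosis, S phase and G1 means of microglia differed by -0.94, -0.62 and -0.39. By the mean, the S phase genes of microglia thus stood nearer the G1 genes than by the median.

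**Figure D1:**
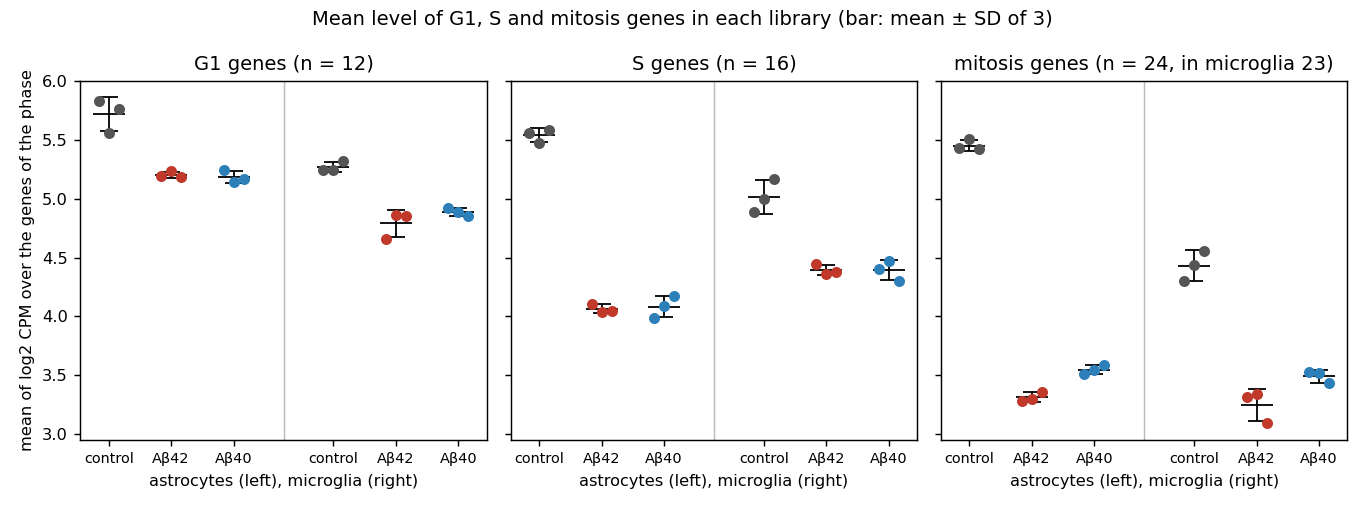
Mean log2 CPM over the G1, S phase and mitosis genes (vertical axis) in each of the 18 libraries, by cell type and treatment (horizontal axis), with points for libraries and bars for the mean ± SD of 3. The mitosis genes lay between 5.42 and 5.51 in untreated astrocytes and below 3.59 in all treated astrocytes, while the 12 G1 genes differed by -0.51 and -0.54 between fibril-treated and untreated astrocytes.

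Markers of several cell types, the astrocytes' own among them, changed in the same libraries. The 10 astrocyte markers summed to between 9494 and 11650 CPM in untreated astrocytes and to between 5964 and 6910 CPM with fibrils. With each fibril 7 of 10 were lower, against 20.4% (Aβ42) and 18.4% (Aβ40) of all tested genes. With Aβ42 and Aβ40 fibrils 2 and 3 were higher, against 16.5% and 14.9%. In the astrocyte libraries the 12 microglial markers fell from between 446 and 574 CPM in sum to between 60.2 and 86.5 CPM with Aβ42 fibrils and between 36.7 and 50.2 CPM with Aβ40 fibrils. Of the 12 markers 11 and 12 were lower, against 20.4% and 18.4% of all tested genes. Oligodendrocyte lineage markers, whose progenitors divide in such cultures, summed to between 1725 and 2574 CPM in untreated astrocytes and between 1272 and 1372 CPM with either fibril. Of these, 5 of 8 were lower in each comparison, against the same shares of all genes. Neuron markers went from between 526 and 558 CPM to between 256 and 267 CPM (Aβ42) and between 354 and 365 CPM (Aβ40), with 5 of 6 lower with each fibril. Fibroblast markers overlapped, at 1420 to 1633 CPM untreated and 1411 to 1594 CPM with fibrils. In microglia the oligodendrocyte lineage sum was between 1963 and 2167 CPM untreated and between 2180 and 2832 CPM with fibrils, and the microglial marker sum fell from between 8476 and 10040 CPM to between 2347 and 3802 CPM. Of these 12 markers 9 and 11 were lower with Aβ42 and Aβ40 fibrils, against 26.6% and 21.4% of all genes. With each fibril 1 was higher, against 27.1% and 19.6%. The part that other cell types had in the changes of the cell cycle genes was not tested.

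The DNA before the transcription start is shown for 6 genes of the panel, which hold 4 to 6 matches each to the motifs below. They are 3 mitosis genes and 3 subunits of the MCM helicase that unwinds DNA in S phase. The sequences are RefSeq's of the GRCr8 build, matched by symbol (39 of the 53 genes had an entry), and give the 250 bases before the start from 5′ to 3′ on the gene's strand. Capitals mark 3 motifs searched on both strands: the CCAAT box (CCAAT), the cell cycle homology region, or CHR (TTTGAA or TTCGAA), and the E2F site (TTTGGCGC, TTTCCCGC, TTTGCCGC or TTTCGCGC), and a longer run of capitals is an overlap of such matches. Mki67 lies at chr1:199952594-199952843 on the minus strand, Ccnb2 at chr8:79981659-79981908 on the minus strand, Cdk1 at chr20:19265043-19265292 on the plus strand, Mcm5 at chr19:13488563-13488812 on the plus strand, Mcm6 at chr13:42404353-42404602 on the minus strand and Mcm7 at chr12:22163179-22163428 on the minus strand.
Mki67: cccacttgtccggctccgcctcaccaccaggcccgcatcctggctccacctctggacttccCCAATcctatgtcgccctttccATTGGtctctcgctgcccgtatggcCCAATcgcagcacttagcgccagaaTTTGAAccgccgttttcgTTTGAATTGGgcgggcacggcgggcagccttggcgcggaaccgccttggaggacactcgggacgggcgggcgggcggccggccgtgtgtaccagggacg
Ccnb2: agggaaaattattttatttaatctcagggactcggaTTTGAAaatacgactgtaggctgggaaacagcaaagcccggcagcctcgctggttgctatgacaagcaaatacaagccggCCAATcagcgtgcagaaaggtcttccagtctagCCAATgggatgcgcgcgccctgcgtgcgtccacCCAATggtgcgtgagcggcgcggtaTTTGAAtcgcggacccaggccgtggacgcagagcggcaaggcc
Cdk1: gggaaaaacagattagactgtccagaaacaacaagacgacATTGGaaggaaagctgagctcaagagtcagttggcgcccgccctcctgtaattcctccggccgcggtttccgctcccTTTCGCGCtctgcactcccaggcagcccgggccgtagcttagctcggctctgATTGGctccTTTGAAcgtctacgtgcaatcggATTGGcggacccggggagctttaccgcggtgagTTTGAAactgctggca
Mcm5: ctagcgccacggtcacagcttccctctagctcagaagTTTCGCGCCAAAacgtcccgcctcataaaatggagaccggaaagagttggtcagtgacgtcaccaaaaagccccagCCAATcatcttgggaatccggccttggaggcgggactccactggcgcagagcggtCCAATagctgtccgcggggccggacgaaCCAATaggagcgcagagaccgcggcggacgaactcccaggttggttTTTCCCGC
Mcm6: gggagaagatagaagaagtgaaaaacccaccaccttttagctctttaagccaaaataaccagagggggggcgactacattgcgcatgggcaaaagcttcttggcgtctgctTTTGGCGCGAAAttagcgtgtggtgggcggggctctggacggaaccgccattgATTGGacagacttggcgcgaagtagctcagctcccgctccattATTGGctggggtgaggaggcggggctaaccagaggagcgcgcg
Mcm7: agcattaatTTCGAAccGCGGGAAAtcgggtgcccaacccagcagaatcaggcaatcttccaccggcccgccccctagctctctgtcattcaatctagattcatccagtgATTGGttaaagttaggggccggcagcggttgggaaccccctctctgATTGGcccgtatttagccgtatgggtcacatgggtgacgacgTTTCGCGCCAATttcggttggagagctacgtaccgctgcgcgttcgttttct

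The CHR was present in 300 bases around the start (250 before and 50 after) of 13 of the 19 mitosis genes with an entry, or 68.4%, in 3 of 13 S phase genes (23.1%) and in none of 7 G1 genes. Among the 8084 promoters of genes tested in both cell types the share was 12.8%, and among all 33465 promoters 19.7%. A CCAAT box stood in 14 of the 19 mitosis genes (73.7%), beside 37.6% of promoters of tested genes, and CHR and CCAAT box occurred together in 11 (57.9%, beside 5.32%). The E2F site showed the other split, in 7 of 13 S phase genes (53.8%) and in 1 of 19 mitosis genes, Cdk1, beside 4.11% of promoters of tested genes. In the last 200 bases before the start alone, these shares were lower for the CHR and for the E2F site of S phase genes. The CHR stood there in 10 of 19 mitosis genes (52.6%), CHR and CCAAT box together in 7 (36.8%) and the E2F site in 5 of 13 S phase genes (38.5%). The promoters of tested genes held them in 8.65%, 2.96% and 2.81%. The mitosis genes Bub1, Aurka and Mybl2 and the S phase gene Tk1 held none of the 3 motifs, and each fell in astrocytes with both fibrils. The motifs are matches of letters and describe the sequences, with no measurement of binding.

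In astrocytes, the G1 genes were split. The D-type cyclins, which carry growth signals into the cycle, did not move as one. Ccnd1 (cyclin D1) stood at 549, 488 and 486 CPM untreated, 484, 499.6 and 479.7 CPM with Aβ42 fibrils and 347, 332 and 352 CPM with Aβ40 fibrils. Only the Aβ40 libraries lay below all untreated ones, with a change of -0.56 ± 0.10 (adjusted p = 0.00142), while the Aβ42 libraries overlapped them (-0.06 ± 0.10, adjusted p = 0.701). Ccnd2 (cyclin D2) measured 69.02, 112 and 77.03 CPM untreated and fell below all 3 of those values to 45.5, 45.5 and 39.3 CPM with Aβ42 and 52.7, 52.6 and 46.1 CPM with Aβ40 fibrils. Its changes were -0.99 ± 0.18 and -0.77 ± 0.18 (adjusted p = 0.00137 and 0.00674). Ccnd3 (cyclin D3) ranged widely, at 66.2, 24.9 and 90.6 CPM untreated, 90.5, 80.3 and 59.2 CPM with Aβ42 and 63.7, 107 and 86.2 CPM with Aβ40 fibrils, and all groups overlapped (0.32 ± 0.37 and 0.48 ± 0.37, adjusted p = 0.538 and 0.354).

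The kinases of the D-type cyclins were within the spread between astrocyte libraries. Cdk4 measured 330.3, 146 and 246 CPM untreated, 212, 215 and 203 CPM with Aβ42 and 182, 210.3 and 205 CPM with Aβ40 fibrils, the untreated libraries lying on both sides of the treated ones. For Cdk6 the levels were 3.62, 2.63 and 5.56 CPM untreated, 5.15, 6.47 and 5.04 CPM with Aβ42 and 6.86, 5.88 and 4.65 CPM with Aβ40 fibrils, with overlap and changes of 0.37 ± 0.27 and 0.42 ± 0.27 (adjusted p = 0.331 and 0.268). The E-type cyclins and Cdk2, which commit a cell to S phase, all fell. Ccne2 (cyclin E2) went from 25.6, 32.8 and 11.9 CPM to 2.81, 2.73 and 4.32 CPM with Aβ42 and 4.16, 2.67 and 3.59 CPM with Aβ40 fibrils, every treated library lying below every untreated one. Its log2 fold changes of -2.80 ± 0.38 and -2.72 ± 0.36 (adjusted p = 1.54e-04 and 1.71e-04) were the largest of any G1 gene in the panel. Ccne1 (cyclin E1) had 9.74, 10.8 and 14.7 CPM untreated, 5.42, 4.65 and 4.32 CPM with Aβ42 and 4.88, 3.58 and 3.39 CPM with Aβ40 fibrils, again without overlap (-1.32 ± 0.22 and -1.64 ± 0.22, adjusted p = 6.79e-04 and 1.68e-04). Cdk2 moved less, from 37.01, 41.6 and 33.6 CPM to 22.4, 24.8 and 27.5 CPM with Aβ42 and 22.3, 21.9 and 22.4 CPM with Aβ40 fibrils (-0.59 ± 0.14 and -0.75 ± 0.14, adjusted p = 0.00667 and 0.00166). In the GRCr8 annotation Ccne2 overlaps Ints8, Cdk2 overlaps Pmel and Cdk4 overlaps Tspan31, and since the strand setting of the counting was not given in the sources used here, reads of such neighbors may be mixed.

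E2f1, the activator of the replication genes, fell in astrocytes from 28.1, 14.6 and 27.9 CPM to 7.21, 7.48 and 6.005 CPM with Aβ42 and 9.46, 9.79 and 8.899 CPM with Aβ40 fibrils, with no overlap and changes of -1.78 ± 0.24 and -1.34 ± 0.23 (adjusted p = 1.41e-04 and 8.96e-04). The 3 CDK inhibitors of the panel did not pass the test. Cdkn1a (p21), a target of p53, measured 400.5, 199 and 312 CPM untreated, 435, 433 and 376 CPM with Aβ42 and 349.6, 416 and 419.9 CPM with Aβ40 fibrils, and untreated replicate 1 lay among the treated libraries. The changes of 0.45 ± 0.21 and 0.38 ± 0.21 (adjusted p = 0.123 and 0.196) turned on that library, since without it they were 0.71 (adjusted p = 0.0183) and 0.63 (adjusted p = 0.0326). Cdkn1b (p27) stood at 209, 232 and 141 CPM untreated, 157, 166 and 186 CPM with Aβ42 and 186, 164 and 159.8 CPM with Aβ40 fibrils and Cdkn2c (p18) at 16.7, 20.1 and 18.01 CPM untreated, 12.9, 15.8 and 18.98 CPM with Aβ42 and 18.4, 9.52 and 17.3 CPM with Aβ40 fibrils. Both overlapped between groups, with changes between -0.29 and -0.19. Cdk6 with Aβ40 fibrils passed the test when untreated replicate 3 was left out (0.89, adjusted p = 0.0447).

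Among the S phase genes of astrocytes, Cdc6, Rrm2 and Tk1 fell most with Aβ42 fibrils. Cdc6, which loads the helicase onto origins, went from 14.5, 18.2 and 13.4 CPM untreated to 2.54, 2.93 and 1.68 CPM with Aβ42 and 1.66, 2.19 and 2.19 CPM with Aβ40 fibrils. Every treated library lay below every untreated one, with log2 fold changes of -2.65 ± 0.23 and -2.88 ± 0.23 (adjusted p = 5.63e-06 and 3.14e-06). Rrm2, the regulated subunit of ribonucleotide reductase, had 47.9, 47.1 and 46.8 CPM untreated, 6.66, 6.97 and 7.57 CPM with Aβ42 and 6.75, 8.45 and 7.504 CPM with Aβ40 fibrils, with tight replicates and log2 fold changes of -2.74 ± 0.14 and -2.63 ± 0.14 (adjusted p = 1.38e-07 and 1.75e-07). Tk1, the thymidine kinase of dividing cells, fell from 53.4, 45.7 and 56.5 CPM to 9.96, 8.79 and 6.61 CPM with Aβ42 and 9.98, 10.7 and 13.8 CPM with Aβ40 fibrils (-2.61 ± 0.20 and -2.17 ± 0.19, adjusted p = 1.84e-06 and 6.33e-06). Tyms, which makes the thymidine nucleotide by another route, did not pass the test. Its levels of 8.91, 11.2 and 9.85 CPM untreated, 8.99, 9.098 and 12.01 CPM with Aβ42 and 8.63, 7.86 and 9.297 CPM with Aβ40 fibrils overlapped in all groups, with changes of -0.00 ± 0.18 and -0.22 ± 0.18 (adjusted p = 0.987 and 0.379).

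The MCM helicase subunits fell in astrocytes to unequal depths. Mcm5 measured 62.3, 60.6 and 65.4 CPM untreated, 11.2, 11.7 and 10.8 CPM with Aβ42 and 8.002, 12.2 and 11.6 CPM with Aβ40 fibrils, log2 fold changes of -2.48 ± 0.17 and -2.55 ± 0.17 (adjusted p = 9.04e-07 and 7.99e-07). Mcm2 stood at 107, 83.8 and 119 CPM untreated and at 58.4, 58.8 and 49.7 CPM with Aβ42 and 51.3, 59.9 and 57.6 CPM with Aβ40 fibrils, also without overlap but with the shallower changes of -0.89 ± 0.15 and -0.88 ± 0.15 (adjusted p = 8.68e-04 and 0.00108). Of the other subunits, Mcm3 fell by 1.68 and 1.63, Mcm6 by 1.54 with Aβ42 fibrils, Mcm7 by 0.97 and 0.95 and Mcm4 by 0.49 with each fibril on the log2 scale. The Mcm4 calls were not stable, since without untreated replicate 2 the change was -0.26 with each fibril (adjusted p = 0.0586 and 0.0588), and the calls were also lost without any 1 of the 3 treated libraries (adjusted p up to 0.12 and 0.121) and with a replicate block (adjusted p = 0.0763 and 0.083). Pcna, the sliding clamp of the DNA polymerases, went from 151, 172 and 141 CPM to 86.1, 97.2 and 109.5 CPM with Aβ42 and 98.4, 82.01 and 99.7 CPM with Aβ40 fibrils (-0.66 ± 0.14 and -0.73 ± 0.14, adjusted p = 0.00338 and 0.00215). Cdt1, the partner of Cdc6 in origin licensing, fell from 41.8, 21.3 and 33.8 CPM to 12.8, 14.2 and 12.1 CPM with Aβ42 and 9.04, 9.896 and 10.4 CPM with Aβ40 fibrils (-1.31 ± 0.22 and -1.72 ± 0.22, adjusted p = 6.62e-04 and 1.10e-04). Untreated libraries of both genes lay above all treated ones. Cdc45, Uhrf1 and Rrm1 fell as well, by 0.92 to 2.23, and Gins2, a subunit of the active helicase, did not pass the test (-0.73 and -0.49).

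The mitosis genes gave the largest median changes in astrocytes, though with Aβ40 fibrils the S phase gene Cdc6 fell most of the panel (-2.88). Mki67, which encodes the chromosome coat protein Ki-67, stood at 163, 298 and 164 CPM untreated, 24.1, 22.6 and 27.6 CPM with Aβ42 and 27.5, 28.4 and 30.4 CPM with Aβ40 fibrils. Untreated replicate 2 was the highest library, and all treated libraries lay far below the other two. The log2 fold changes of -3.07 ± 0.23 and -2.85 ± 0.23 (adjusted p = 2.17e-06 and 3.89e-06) correspond to levels 8.40-fold and 7.23-fold lower. Top2a, the topoisomerase that untangles chromosomes before they part, went from 135, 221 and 127 CPM to 23.4, 26.5 and 21.98 CPM with Aβ42 and 27.3, 25.6 and 28.5 CPM with Aβ40 fibrils (-2.75 ± 0.21 and -2.57 ± 0.21, adjusted p = 2.37e-06 and 4.09e-06). The mitotic cyclins and their kinase fell in every treated library. Ccna2 (cyclin A2) had 54.5, 73.5 and 41.2 CPM untreated, 5.63, 6.97 and 7.09 CPM with Aβ42 and 9.66, 9.31 and 8.23 CPM with Aβ40 fibrils, and its Aβ42 change of -3.10 ± 0.23 (adjusted p = 1.51e-06) was the largest fall in the panel. Ccnb1 (cyclin B1) went from 32.8, 44.8 and 40.4 CPM to 6.66, 5.76 and 8.77 CPM with Aβ42 and 9.66, 8.13 and 10.6 CPM with Aβ40 fibrils, and Cdk1 from 55.7, 51.7 and 63.3 CPM to 12.98, 12.1 and 17.4 CPM with Aβ42 and 17.98, 17.5 and 21.9 CPM with Aβ40 fibrils. Their changes were -2.49 and -2.06 for Ccnb1 and -2.02 and -1.58 for Cdk1 with Aβ42 and Aβ40 fibrils.

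Mybl2 (B-Myb), a transcription factor of the mitotic genes, fell from 32.8, 32.3 and 31.8 CPM in untreated astrocytes to 5.904, 5.46 and 4.204 CPM with Aβ42 and 4.16, 4.92 and 4.18 CPM with Aβ40 fibrils, and its -2.86 ± 0.17 (adjusted p = 3.10e-07) with Aβ40 fibrils was the largest fall of a mitosis gene in that comparison. Aurkb, the kinase that corrects the attachment of chromosomes, went from 231, 193 and 252 CPM to 71.5, 58.8 and 59.2 CPM with Aβ42 and 94.2, 109 and 97.02 CPM with Aβ40 fibrils (-1.83 ± 0.14 and -1.17 ± 0.14, adjusted p = 2.67e-06 and 7.67e-05). The other kinases, motors and checkpoint genes fell by 1.10 to 2.90, the spindle checkpoint kinase Bub1b by 2.90 and 2.63 and the cytokinesis motor Kif23 by 1.19 and 1.10. Tpx2, which nucleates spindle microtubules, was the exception among the 24. It measured 85.4, 139 and 79.98 CPM untreated, 149, 137 and 148 CPM with Aβ42 and 143, 152 and 146 CPM with Aβ40 fibrils, so that untreated replicate 2 reached the Aβ42 libraries and the other two were lower than every treated library. The change of 0.52 ± 0.19 (adjusted p = 0.0507) with Aβ42 fibrils missed the threshold and became 0.82 (adjusted p = 2.86e-05) without untreated replicate 2. The change of 0.54 ± 0.19 (adjusted p = 0.0455) with Aβ40 fibrils passed it, and the adjusted p lay between 0.085 and 0.134 when any of the other 5 libraries was left out.

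**Figure D2:**
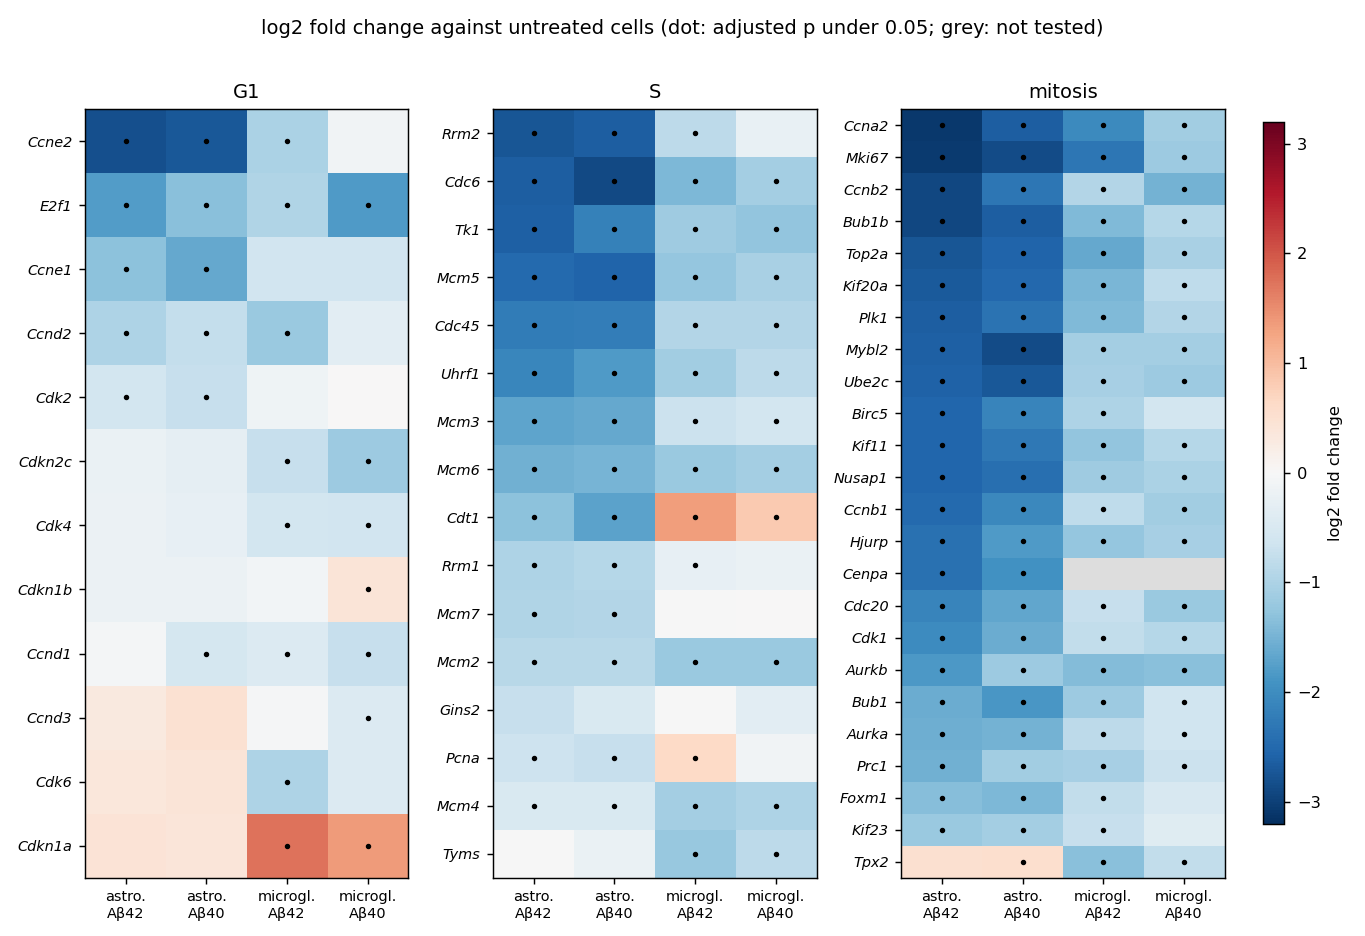
Log2 fold change of each gene of the panel (rows, sorted by the astrocyte Aβ42 change within G1, S phase and mitosis) in the 4 comparisons of fibrils with untreated cells (columns), blue for lower and red for higher, with a dot for an adjusted p under 0.05 and grey for a gene not tested. The mitosis panel is blue in all 4 columns except for Tpx2 in astrocytes (0.52 and 0.54), and the red entries of the microglia columns are mainly Cdkn1a (1.75 and 1.37) and Cdt1 (1.35 and 0.84).

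In microglia, the CDK inhibitor Cdkn1a moved most among the G1 genes with Aβ42 fibrils. Its levels were 180, 130 and 159 CPM untreated, 405, 532 and 638 CPM with Aβ42 and 384, 393 and 438 CPM with Aβ40 fibrils. Every treated library lay above every untreated one, with log2 fold changes of 1.75 ± 0.17 and 1.37 ± 0.17 (adjusted p = 3.10e-06 and 3.18e-05). Cdkn1b measured 100.1, 97.9 and 93.3 CPM untreated, 117, 83.6 and 77.8 CPM with Aβ42 and 119, 122 and 149.8 CPM with Aβ40 fibrils, and rose with Aβ40 fibrils (0.42 ± 0.15, adjusted p = 0.0427), where the groups did not overlap. That call was lost without any 1 of the 6 libraries (0.31 to 0.48, adjusted p = 0.0599 to 0.171) and with a replicate block (adjusted p = 0.0609). With Aβ42 fibrils its change was -0.09 ± 0.15 (adjusted p = 0.629). Cdkn2c, by contrast, fell from 5.65, 5.02 and 6.71 CPM to 1.2, 3.898 and 3.65 CPM with Aβ42 and 2.65, 3.13 and 1.38 CPM with Aβ40 fibrils, changes of -0.73 ± 0.26 and -1.17 ± 0.35 (adjusted p = 0.032 and 0.017), and each call was lost without any 1 of 3 libraries (adjusted p up to 0.126 and 0.0622).

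Of the 5 D-type cyclins and partner kinases, 4 fell in microglia with Aβ42 fibrils, 3 fell with Aβ40 fibrils and none rose. Among all tested genes 26.6% (Aβ42) and 21.4% (Aβ40) were lower, and 27.1% and 19.6% were higher. Ccnd1 went from 267, 316 and 286 CPM to 199, 227 and 215 CPM with Aβ42 and 195, 165 and 160.4 CPM with Aβ40 fibrils, all treated libraries lying below the untreated ones (-0.43 ± 0.11 and -0.74 ± 0.11, adjusted p = 0.0061 and 2.25e-04). Ccnd2 measured 106, 107 and 112 CPM untreated, 68.8, 38.98 and 40.7 CPM with Aβ42 and 81.1, 73.8 and 106 CPM with Aβ40 fibrils. It fell with Aβ42 fibrils (-1.20 ± 0.20, adjusted p = 2.90e-04), while the Aβ40 change of -0.33 ± 0.19 (adjusted p = 0.197) missed the threshold. Ccnd3 had 56.4, 48.7 and 57.5 CPM untreated, 39.6, 57.4 and 56.9 CPM with Aβ42 and 40.3, 42.9 and 35.4 CPM with Aβ40 fibrils, and passed the test with Aβ40 (-0.45 ± 0.15, adjusted p = 0.0351) but not with Aβ42 fibrils (-0.05 ± 0.14, adjusted p = 0.794). The Aβ40 call of Ccnd3 was lost without any 1 of 5 libraries (-0.51 to -0.38, adjusted p = 0.0548 to 0.126) and with a replicate block (adjusted p = 0.0579). Cdk4 fell with both, from 217, 239 and 231 CPM to 166, 147 and 145 CPM with Aβ42 and 138, 158 and 153 CPM with Aβ40 fibrils (-0.59 ± 0.10 and -0.61 ± 0.10, adjusted p = 4.09e-04 and 4.10e-04). Cdk6 stood at 11.8, 10.2 and 12.5 CPM untreated, 8.397, 5.54 and 5.303 CPM with Aβ42 and 9.17, 8.28 and 8.27 CPM with Aβ40 fibrils, below the untreated range in each treated library, and passed the test with Aβ42 fibrils (-0.99 ± 0.18, adjusted p = 6.26e-04) and not with Aβ40 fibrils (-0.43 ± 0.20, adjusted p = 0.109).

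Of the genes that open S phase, E2f1 fell in microglia with both fibrils, from 12.6, 13.9 and 13.1 CPM to 3.998, 6.89 and 7.47 CPM with Aβ42 and 2.65, 4.03 and 5.06 CPM with Aβ40 fibrils (-0.97 ± 0.19 and -1.81 ± 0.26, adjusted p = 0.00125 and 1.16e-04). Ccne2 measured 9.07, 11.6 and 10.7 CPM untreated, 9.996, 4.76 and 4.11 CPM with Aβ42 and 8.93, 11.2 and 8.27 CPM with Aβ40 fibrils. Replicate 1 of the Aβ42 libraries lay among the untreated ones, and the gene fell with Aβ42 fibrils (-1.01 ± 0.26, adjusted p = 0.00584, and 0.0509 and 0.0593 without either of 2 libraries) while the Aβ40 libraries overlapped the untreated ones (-0.10 ± 0.27, adjusted p = 0.802). Ccne1 was low, at 4.59, 5.41 and 6.25 CPM untreated, 0.7997, 3.59 and 4.11 CPM with Aβ42 and 5.55, 2.24 and 2.298 CPM with Aβ40 fibrils, and Cdk2 even, at 34.8, 34.6 and 30.2 CPM untreated, 27.2, 31.8 and 30.4 CPM with Aβ42 and 34.3, 31.8 and 34.01 CPM with Aβ40 fibrils. Neither passed the test, with changes of -0.62 for Ccne1 with each fibril and -0.14 ± 0.12 and 0.00 ± 0.12 (adjusted p = 0.347 and 0.983) for Cdk2.

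The S phase genes of microglia moved in both directions. Cdc6 fell from 7.42, 7.15 and 10.98 CPM untreated to 5.998, 2.73 and 2.85 CPM with Aβ42 and 4.34, 4.697 and 2.298 CPM with Aβ40 fibrils (-1.44 ± 0.28 and -1.08 ± 0.33, adjusted p = 0.00104 and 0.0201), the Aβ40 call being lost without any 1 of 3 libraries (adjusted p up to 0.0892). Cdt1, its partner, rose from 10.01, 11.4 and 12.8 CPM to 21.6, 28.02 and 34.4 CPM with Aβ42 and 20.5, 18.6 and 22.5 CPM with Aβ40 fibrils, with every treated library above every untreated one. The log2 fold changes of 1.35 ± 0.18 and 0.84 ± 0.20 (adjusted p = 4.69e-05 and 0.00435) stand beside falls of 1.31 and 1.72 in astrocytes. Pcna rose with Aβ42 fibrils, from 109, 100.1 and 118 CPM to 141, 181 and 181 CPM (0.63 ± 0.12, adjusted p = 0.00114), and overlapped the untreated libraries with Aβ40 fibrils, at 110.5, 102 and 91.01 CPM (-0.10 ± 0.13, adjusted p = 0.568).

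The helicase subunits Mcm2 to Mcm6 all fell in microglia with both fibrils, by 0.58 to 1.25 on the log2 scale. Mcm5 went from 30.9, 28.01 and 41.2 CPM to 15.2, 13.5 and 14.2 CPM with Aβ42 and 20.03, 15.4 and 11.9 CPM with Aβ40 fibrils (-1.25 ± 0.18 and -1.04 ± 0.20, adjusted p = 1.19e-04 and 0.00106). Mcm2 measured 82.5, 81.3 and 94.1 CPM untreated, 38.4, 36.8 and 38.7 CPM with Aβ42 and 34.02, 36.5 and 43.2 CPM with Aβ40 fibrils (-1.18 ± 0.12 and -1.20 ± 0.12, adjusted p = 3.86e-06 and 6.67e-06). Neither gene had any overlap between treated and untreated libraries. Mcm7, whose gene also carries a microRNA cluster, had 62.4, 63.7 and 67.9 CPM untreated, 55.2, 68.9 and 66.6 CPM with Aβ42 and 69.3, 66.7 and 57.9 CPM with Aβ40 fibrils, with all groups overlapping and changes of -0.01 ± 0.11 and 0.01 ± 0.12 (adjusted p = 0.959 and 0.973). Among the nucleotide suppliers, Tk1 fell from 27.6, 28.6 and 31.7 CPM to 15.2, 13.5 and 12.4 CPM with Aβ42 and 11.1, 15.4 and 9.19 CPM with Aβ40 fibrils (-1.13 ± 0.16 and -1.25 ± 0.18, adjusted p = 9.37e-05 and 1.29e-04). Tyms, which had not changed past the threshold in astrocytes, fell from 15.7, 18.2 and 17.2 CPM to 12.4, 6.71 and 6.16 CPM with Aβ42 and 8.204, 9.84 and 10.6 CPM with Aβ40 fibrils (-1.21 ± 0.21 and -0.85 ± 0.23, adjusted p = 4.61e-04 and 0.0117), the Aβ40 call being lost without Aβ40 replicate 1 (-0.74, adjusted p = 0.0653). Rrm2 fell with Aβ42 fibrils, from 23.9, 31.3 and 31.4 CPM to 20.4, 16.1 and 14.1 CPM (-0.83 ± 0.16, adjusted p = 0.00109), and overlapped the untreated libraries with Aβ40 fibrils at 22.2, 25.9 and 25.7 CPM (-0.23 ± 0.17, adjusted p = 0.315).

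All 23 tested mitosis genes had changes below 0 in microglia with either fibril, and 23 and 20 passed the test. Mki67 stood at 102, 122 and 142 CPM untreated, 32.4, 22 and 22.4 CPM with Aβ42 and 53.8, 50.3 and 59.8 CPM with Aβ40 fibrils, 3 levels with no overlap. Its changes were -2.32 ± 0.17 and -1.17 ± 0.16 (adjusted p = 2.63e-07 and 1.02e-04). Ccna2 measured 18.3, 21.6 and 24.6 CPM untreated, 7.197, 5.41 and 4.39 CPM with Aβ42 and 10.9, 8.499 and 10.6 CPM with Aβ40 fibrils (-2.04 ± 0.19 and -1.11 ± 0.20, adjusted p = 2.67e-06 and 7.71e-04). Top2a followed the same order, from 78.9, 111 and 107 CPM to 37.2, 32.3 and 27.7 CPM with Aβ42 and 48.7, 44.1 and 52.9 CPM with Aβ40 fibrils (-1.64 ± 0.16 and -1.03 ± 0.16, adjusted p = 2.96e-06 and 2.01e-04).

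The B-type cyclins and Cdk1 fell in microglia with both fibrils and did not pass the test of one fibril against the other. Ccnb2 (cyclin B2) went from 5.77, 5.21 and 4.88 CPM to 3.998, 3.08 and 2.11 CPM with Aβ42 and 1.45, 2.01 and 2.298 CPM with Aβ40 fibrils, and Ccnb1 from 15.2, 14.1 and 18.3 CPM to 5.998, 10.2 and 8.89 CPM with Aβ42 and 8.93, 6.49 and 6.43 CPM with Aβ40 fibrils. Cdk1 had 20.6, 17.4 and 24.6 CPM untreated, 10.4, 13.04 and 11.9 CPM with Aβ42 and 10.6, 10.96 and 12.4 CPM with Aβ40 fibrils. All 3 genes lay below the untreated range in every treated library, with falls between 0.79 and 0.94 with Aβ42 and between 0.90 and 1.51 with Aβ40 fibrils. The Aβ42 call of Ccnb2 was lost without 1 library (-0.69, adjusted p = 0.0553). Aurkb, low in microglia, fell from 14.5, 17.2 and 17.2 CPM to 4.798, 7.32 and 5.53 CPM with Aβ42 and 7.48, 6.49 and 4.597 CPM with Aβ40 fibrils (-1.38 ± 0.19 and -1.34 ± 0.22, adjusted p = 5.92e-05 and 3.53e-04). Mybl2 fell from 7.303, 9.66 and 12.7 CPM to 3.199, 4.89 and 4.62 CPM with Aβ42 and 5.31, 3.58 and 5.06 CPM with Aβ40 fibrils (-1.09 and -1.10). Its Aβ40 call was lost without Aβ40 replicate 2 (-0.91, adjusted p = 0.0525). Tpx2 fell in microglia, from 48.4, 56.8 and 61.2 CPM to 34.4, 20.1 and 16.6 CPM with Aβ42 and 33.1, 31.5 and 30.8 CPM with Aβ40 fibrils (-1.35 ± 0.21 and -0.80 ± 0.21, adjusted p = 1.85e-04 and 0.00973), the Aβ40 call being lost without untreated replicate 3 (-0.70, adjusted p = 0.0505). The mitosis genes that missed the threshold with Aβ40 fibrils were Birc5, Foxm1 and Kif23, with changes of -0.60, -0.52 and -0.38. Cenpa, the histone of the centromere, had too few counts for the test in microglia, at 1.89, 3.48 and 3.05 CPM untreated, 1.2, 1.299 and 1.14 CPM with Aβ42 and 1.69, 1.12 and 0 CPM with Aβ40 fibrils, where the 0 of replicate 3 allows up to 1.38 CPM.

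**Figure D3:**
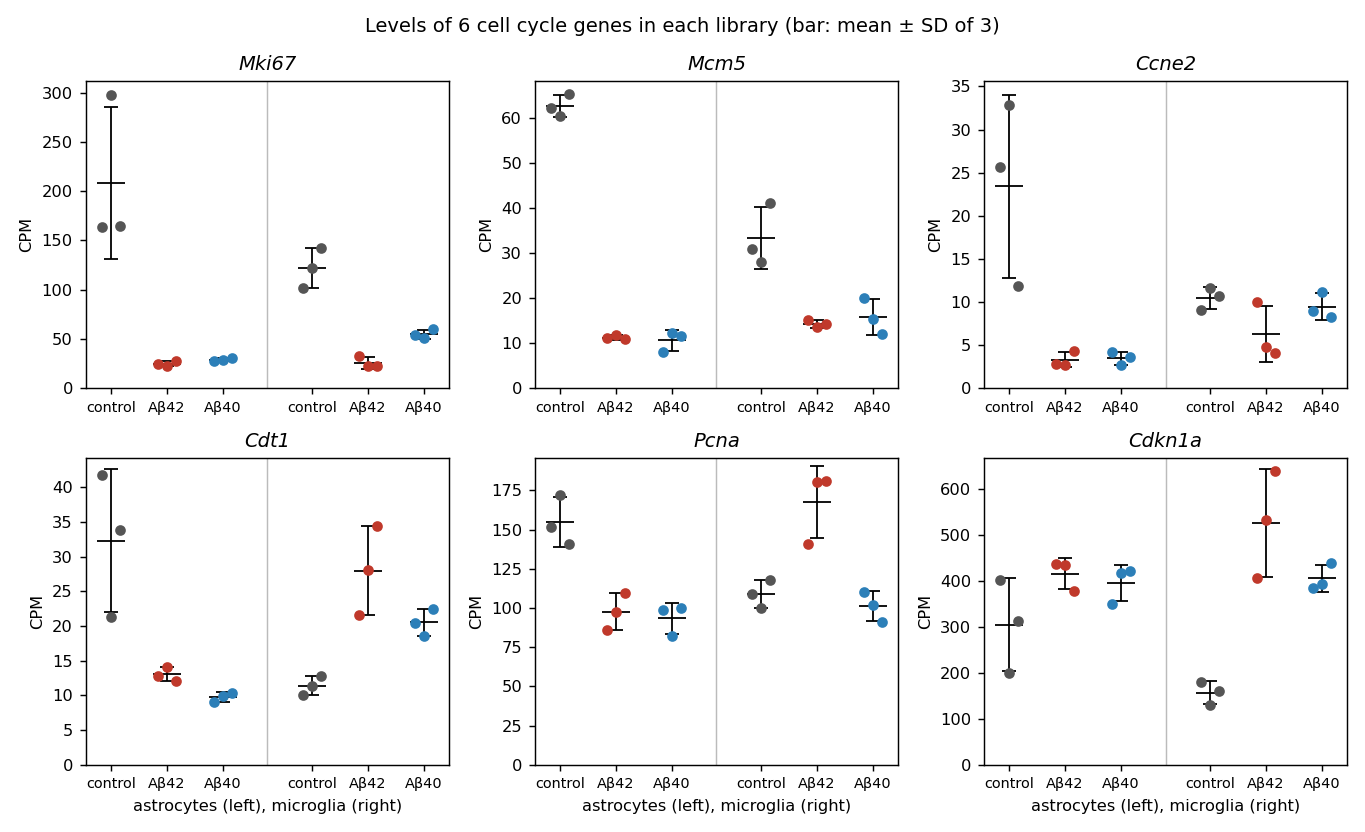
CPM of Mki67, Mcm5, Ccne2, Cdt1, Pcna and Cdkn1a (vertical axes, each starting at 0) in each of the 18 libraries by cell type and treatment, with points for libraries and bars for the mean ± SD of 3. Cdt1 lies between 9.04 and 14.2 CPM in treated astrocytes and between 18.6 and 34.4 CPM in treated microglia, below and above the untreated libraries of the same cell type.

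Whether the response differed between the cell types was tested with the interaction of fibril and cell type in a joint fit of all 18 libraries, which covers 11581 genes and all 52 genes of the panel. For Aβ42 fibrils 31 of the 52 genes had a response higher in microglia than in astrocytes and 4 a lower one, against 19.3% and 17.9% of all tested genes. The 31 comprised 18 mitosis genes, 11 S phase genes and the G1 genes Ccne2 and Cdkn1a. The 4 with a lower response in microglia were Tpx2, Cdk6, Tyms and Mcm4, of which Mcm4 lost its call (-0.59 to -0.44, adjusted p = 0.0592 to 0.117) without any 1 of 7 libraries. Without untreated astrocyte replicate 2 the response was higher in microglia for 34 (Aβ42) and 30 (Aβ40) genes, and without Aβ42 microglia replicate 1 it was higher for 34 (Aβ42). No share of all genes is given for these fits. For Aβ40 fibrils 29 genes had a response higher in microglia and 1, Tpx2, a lower one, against 16% and 16.5% of all genes. The 29 comprised 15 mitosis, 11 S phase and 3 G1 genes. Over the mitosis genes the median difference of response on the log2 scale was 1.22 for Aβ42 and 1.06 for Aβ40. Over the S phase genes it was 0.98 and 0.92, and over all tested genes 0.04 and 0.01.

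Set side by side, 36 of the 51 genes tested in both cell types fell in both with Aβ42 fibrils, 22 of them mitosis genes, 11 S phase genes and 3 G1 genes, and 30 of 51 fell in both with Aβ40 fibrils, beside 7.82% and 5.88% of all 10211 genes tested in both. The fall was deeper in astrocytes for 33 of the 36 and 25 of the 30, with no such share given for all genes that fell in both. Pcna and Cdt1 fell in astrocytes and rose in microglia with Aβ42 fibrils, as Cdt1 did with Aβ40 fibrils, and Tpx2 rose in astrocytes and fell in microglia with Aβ40 fibrils. The interaction of Cdt1 was 2.64 ± 0.29 and 2.54 ± 0.30 (adjusted p = 1.00e-06 and 3.05e-06), the largest for Aβ42 in the panel. That of Pcna was 1.29 ± 0.20 and 0.61 ± 0.20 (adjusted p = 5.78e-05 and 0.0273), the Aβ40 value losing its call without any 1 of 5 libraries (adjusted p = 0.056 to 0.084), and that of Tpx2 was -1.85 ± 0.29 and -1.36 ± 0.29 (adjusted p = 6.12e-05 and 0.00145). Rrm2, with falls of 2.74 and 2.63 in astrocytes and of 0.83 with Aβ42 fibrils in microglia, had interactions of 1.92 ± 0.21 and 2.39 ± 0.22 (adjusted p = 1.14e-06 and 9.27e-08). For Ccne2 they were 1.82 ± 0.49 and 2.60 ± 0.49 (adjusted p = 0.00638 and 4.57e-04). The interaction of Cdkn1a was 1.30 ± 0.28 and 0.97 ± 0.28 (adjusted p = 0.00133 and 0.0126). Some mitosis genes did not differ past the threshold, among them Aurkb (0.45 ± 0.23 and -0.18 ± 0.25, adjusted p = 0.129 and 0.724) and Kif23 (0.45 and 0.70).

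**Figure D4:**
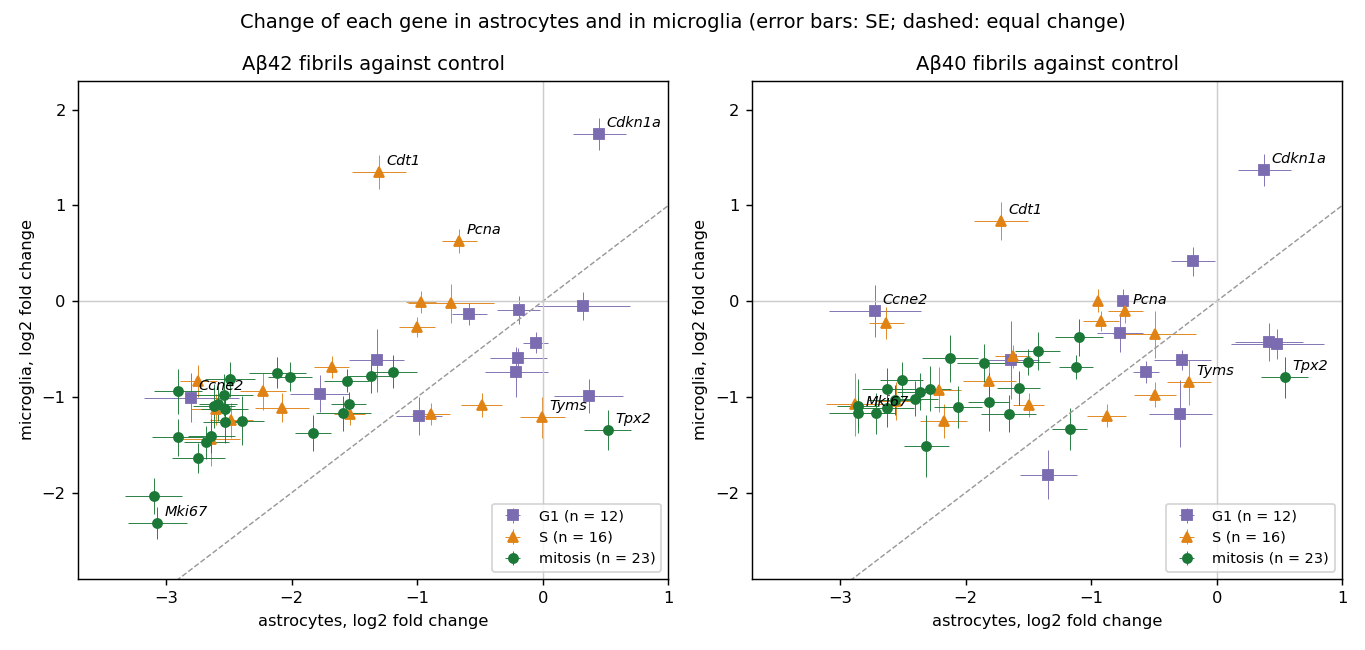
Log2 fold change of each gene in astrocytes (horizontal axis) and microglia (vertical axis) with Aβ42 fibrils (left) and Aβ40 fibrils (right), squares for G1, triangles for S phase and circles for mitosis genes, with SE bars and a dashed line of equal change. Most points lie above the line and left of 0, with a log2 fold change that was lower in astrocytes for 41 and 40 of 51 genes, called or not, and Tpx2 lies to the right of 0 and well below the line.

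The next comparison asked whether the fibrils differed from each other. In astrocytes no gene of the panel was called higher or lower with Aβ42 than with Aβ40 fibrils by edgeR, where 0.0599% and 0.0257% of all genes were. The Aβ42 libraries lay wholly above the Aβ40 libraries for 3 genes of the panel and wholly below for 12, against 9.13% and 9.75% of all genes. At an unadjusted p under 0.05, for which no share of all genes is given, 1 gene was higher and 6 were lower, and DESeq2 called Ccnd1 higher (0.51) and Aurkb lower (-0.66). These are the ends of the panel's range of differences, whose SEs ran from 0.102 to 0.509, and Ccnd1 and Aurkb are named here because of that call. In microglia 8 genes were lower and 2 higher with Aβ42 than with Aβ40 fibrils, against 9.01% and 11.3% of all genes. Libraries did not overlap for 13 lower and 2 higher genes, against 14.5% and 14.8% of all genes. Mki67 was lower by 1.15 ± 0.17 (adjusted p = 0.00613), Ccna2 by 0.92 ± 0.22 (adjusted p = 0.0237), Ccne2 by 0.91 ± 0.29 (adjusted p = 0.0441) and Ccnd2 by 0.86 ± 0.20 (adjusted p = 0.0214), and Top2a, Kif20a, Rrm2 and Cdkn1b by 0.51 to 0.65. Pcna was higher by 0.73 ± 0.13 (adjusted p = 0.00921) and E2f1 by 0.85 ± 0.27 (adjusted p = 0.045). These counts rest on single libraries. Without Aβ42 replicate 1 they were 14 lower and 7 higher, against 26.8% and 27.1% of all genes. Without any 1 of the other 5 libraries they were 1 lower and at most 1 higher, against 0.265% to 0.628% and 0.62% to 0.755% of all genes. The Pcna call was lost (0.66 to 0.73, adjusted p = 0.0506 to 0.0525) without Aβ42 replicate 3, Aβ40 replicate 2 or Aβ40 replicate 3.

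Untreated microglia and untreated astrocytes, taken at 24 h like the treated cultures, also differed in these genes. Cell type cannot be told apart here from the isolation, plating and library preparation of each cell type. Of the 52 genes, 33 were lower and 3 higher in microglia, against 34.5% and 34.2% of all 11581 tested genes. Libraries did not overlap for 28 lower and 3 higher genes, against 32.6% and 34.5% of all genes. Without untreated astrocyte replicate 2, 29 were lower and 4 higher, with no share of all genes given for that fit. Mki67 (-0.17, adjusted p = 0.283) and Top2a (-0.15, adjusted p = 0.338) were then no longer called lower. Ccne2, Cdc6 and Tpx2 lost their calls in that fit as well. The 33 lower ones comprised 19 of 24 mitosis genes (median -0.93), 7 of 16 S phase genes (median -0.27) and 7 of 12 G1 genes (median -0.58), beside a median of -0.00 over all tested genes. Scaling by library totals in place of the composition-based factors moved the median of all genes to -0.28, and the phase medians to -1.20, -0.55 and -0.85. Aurkb had by far the largest gap (-3.54 ± 0.16, adjusted p = 5.52e-13). On the common scale of the joint fit its mean was 210 CPM (181 to 233) in untreated astrocytes and 18.1 CPM (16.1 to 19.2) in untreated microglia. Kif23 followed among the mitosis genes (-1.54 ± 0.19, adjusted p = 7.03e-07), and Cdkn2c (-1.40 ± 0.28, adjusted p = 2.20e-04) and Cdt1 (-1.25 ± 0.21, adjusted p = 3.34e-05) led the G1 and S phase genes. The 3 genes higher in microglia were Cdk6 (1.67 ± 0.24, adjusted p = 3.96e-06), Tyms (1.01 ± 0.20, adjusted p = 2.07e-04) and Ccnd2 (0.58 ± 0.19, adjusted p = 0.0113), the last of which lost its call without either of 2 libraries (adjusted p = 0.0517 and 0.111) and with library totals. The MCM subunits Mcm2, Mcm3, Mcm4 and Mcm6 differed by -0.05 to 0.07 and did not pass the test.

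A wider list of 119 further cell cycle genes was followed in the same way. In astrocytes 83 of 102 tested genes fell with Aβ42 fibrils and 78 with Aβ40 fibrils, against 20.4% and 18.4% of all genes, and 2 rose with each, against 16.5% and 14.9%. In microglia 59 and 47 of 99 fell, against 26.6% and 21.4% of all genes, and 9 and 7 rose, against 27.1% and 19.6%. The 2 that rose in astrocytes were the CDK inhibitors Cdkn2a and Cdkn2b, and they rose in microglia as well. Cdkn2b (p15) measured 15.3, 18.9 and 18.01 CPM in untreated astrocytes, 95.1, 106 and 112 CPM with Aβ42 and 77.01, 63.9 and 72.5 CPM with Aβ40 fibrils (2.58 ± 0.15 and 2.02 ± 0.14, adjusted p = 2.44e-07 and 1.49e-06). In microglia it went from 24.6, 17.96 and 21.1 CPM to 151, 166 and 182 CPM with Aβ42 and 152, 150.5 and 167 CPM with Aβ40 fibrils (2.96 ± 0.13 and 2.87 ± 0.13, adjusted p = 4.74e-09 and 7.45e-09). Cdkn2a, the locus of p16 and p19Arf, was low without fibrils, at 1.11, 0.479 and 1.62 CPM in astrocytes and 1.53, 0.386 and 2.59 CPM in microglia. Untreated replicate 2 of each cell type lay under the level of 3 counts (0.718 CPM in astrocytes, 0.579 CPM in microglia). The sizes of the Cdkn2a changes therefore rest in part on few counts. It rose in astrocytes to 9.54, 11.02 and 7.45 CPM with Aβ42 and 7.59, 5.51 and 7.305 CPM with Aβ40 fibrils (2.88 ± 0.32 and 2.41 ± 0.33, adjusted p = 3.98e-05 and 1.81e-04) and in microglia to 41.98, 71.2 and 85.9 CPM with Aβ42 and 40.8, 38.5 and 39.1 CPM with Aβ40 fibrils (5.43 ± 0.36 and 4.63 ± 0.38, adjusted p = 1.11e-07 and 9.17e-07). No treated library of either gene overlapped an untreated one, and the response of Cdkn2a was higher in microglia by 2.55 ± 0.62 (adjusted p = 0.00303) with Aβ42 and 2.23 ± 0.62 (adjusted p = 0.00953) with Aβ40 fibrils.

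The deepest falls of the wider list were of Nuf2, a kinetochore subunit, and of E2f7, an E2F repressor, in astrocytes. Nuf2 went from 43.1, 65.1 and 27.4 CPM to 5.49, 4.45 and 4.32 CPM with Aβ42 and 7.898, 6.37 and 7.903 CPM with Aβ40 fibrils (-3.21 ± 0.30 and -2.60 ± 0.29, adjusted p = 1.06e-05 and 3.91e-05), and E2f7 from 10.02, 11.7 and 11.1 CPM to 1.65, 0.809 and 1.08 CPM with Aβ42 and 1.98, 1.605 and 1.93 CPM with Aβ40 fibrils (-3.15 ± 0.25 and -2.59 ± 0.23, adjusted p = 2.75e-06 and 7.07e-06). In microglia the deepest were of Chek2, a DNA damage checkpoint kinase, and Ttk, the kinase that starts the spindle checkpoint. Chek2 fell from 16.5, 17.2 and 16.6 CPM to 3.998, 4.504 and 3.19 CPM with Aβ42 and 3.62, 4.697 and 2.76 CPM with Aβ40 fibrils (-2.10 ± 0.18 and -2.11 ± 0.22, adjusted p = 1.41e-06 and 9.48e-06), and Ttk from 21.6, 18.9 and 22.3 CPM to 3.599, 5.67 and 4.85 CPM with Aβ42 and 6.03, 6.93 and 7.81 CPM with Aβ40 fibrils (-2.04 ± 0.17 and -1.62 ± 0.19, adjusted p = 7.48e-07 and 2.18e-05). Every treated library of these 4 genes lay below every untreated one.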

How the data were processed

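RNA was sequenced from 9 astrocyte and 9 microglia libraries with a stranded poly(A) kit. The deposited values are whole-number counts per gene symbol in 1 table per library. Per the labels and the methods, the authors aligned reads to rn5 with STAR, quantified genes with Salmon and took gene counts from DESeq2. Versions and the strand setting are not given in the sources used here. Rows that name no gene held 26.0% to 34.2% of astrocyte and 21.7% to 24.5% of microglia counts and were left out.

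From the counts, libraries were scaled with TMM factors, genes too low for filterByExpr were dropped (11690 astrocyte and 10837 microglia genes stayed), and edgeR 4.0.16 quasi-likelihood tests (R 4.3.3, two-sided) were fitted over all 9 libraries of a cell type. The cell types were compared in 1 fit of 18 libraries (11581 genes). Calls needed a Benjamini-Hochberg adjusted p under 0.05. The mean log2 CPM of a phase used a prior count of 2. An exact permutation test of 3 against 3 libraries cannot go below p = 0.1 and was not used. The steps were tested on simulated counts. Alternatives were other scalings, DESeq2 1.42.0, other filters, a 2-fold minimum, the 2 compared groups alone, a replicate block, each library left out, and a shorter promoter window. Promoters and overlapping genes came from RefSeq (GRCr8), which is not the authors' build, and were joined by symbol. Figures were drawn with matplotlib 3.10.9.

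The members, phases and other lists were chosen with earlier results of these data known. Values in every library are given for Mki67, Top2a, Cdk1, Ccnb1, Mcm2 and Pcna, for the 12 G1 genes, for the 2 largest falls and rises among called S phase and mitosis genes in each comparison of fibrils with control, for genes with opposite calls in the cell types and for the 2 largest falls and rises of the wider list. A few others shown beside them (Tk1 and Tyms in astrocytes, Tyms, Mcm7 and Rrm2 in microglia, Cenpa) were added after their values were seen.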

Additional observations from a re-analysis of the deposited data

Results flagged for a closer look

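The results in this section are genes of the panel whose response to a fibril differed between microglia and astrocytes by the interaction test over all genes. Each value is the log2 fold change in microglia minus that in astrocytes, so a value above 0 stands for a shallower fall, or a rise, in microglia. With Aβ42 fibrils 31 values lay above 0 and 4 below, against 19.3% and 17.9% of all 11581 tested genes. With Aβ40 fibrils 29 lay above 0 and 1 below, against 16% and 16.5%.

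Among the G1 genes with Aβ42 fibrils the difference was 1.82 for Ccne2, 1.30 for Cdkn1a and -1.33 for Cdk6. With Aβ40 fibrils it was 2.60 for Ccne2, 0.97 for Cdkn1a and 0.73 for Cdk2.

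The genes of origin licensing and firing differed by 2.64 for Cdt1, 1.29 for Cdc45 and 1.23 for Cdc6 with Aβ42 fibrils and by 2.54, 1.27 and 1.78 for the same genes with Aβ40 fibrils. The helicase subunits differed by 1.24 for Mcm5, 0.99 for Mcm3, 0.95 for Mcm7 and -0.59 for Mcm4 with Aβ42 fibrils. With Aβ40 fibrils they differed by 1.49 for Mcm5, 1.03 for Mcm3 and 0.94 for Mcm7. For the suppliers of nucleotides the Aβ42 values were 1.92 for Rrm2, 1.48 for Tk1, 0.72 for Rrm1 and -1.19 for Tyms, and the Aβ40 values 2.39 for Rrm2, 0.90 for Tk1 and 0.70 for Rrm1. Pcna differed by 1.29 and 0.61, and Uhrf1, which keeps DNA methylation through replication, by 0.96 with each fibril.

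Of the mitotic cyclins and their kinase, Ccnb2 differed by 1.98, Ccnb1 by 1.66, Cdk1 by 1.22 and Ccna2 by 1.08 with Aβ42 fibrils, and Ccna2 by 1.496 and Ccnb1 by 0.94 with Aβ40 fibrils. The kinases and checkpoint genes gave 1.58 for Birc5, 1.49 for Bub1b, 1.24 for Plk1 and 0.73 for Aurka with Aβ42 fibrils. With Aβ40 fibrils they gave 1.69 for Bub1b, 1.52 for Birc5, 1.40 for Plk1, 1.19 for Bub1 and 0.86 for Aurka. The partners of the anaphase-promoting complex gave 1.52 for Ube2c and 1.36 for Cdc20 with Aβ42 fibrils and 1.52 for Ube2c with Aβ40 fibrils. The centromere chaperone Hjurp differed by 1.15 with Aβ42 fibrils.

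The spindle genes differed by 1.40 for Nusap1, 1.28 for Kif11, 1.21 for Kif20a and 0.48 for Prc1 with Aβ42 fibrils, and by 1.67 for Kif20a, 1.37 for Nusap1 and 1.34 for Kif11 with Aβ40 fibrils. Tpx2 went the other way, by -1.85 and -1.36. Mki67 differed by 0.76 and 1.67 and Top2a by 1.11 and 1.52 with Aβ42 and Aβ40 fibrils. The transcription factor Mybl2 differed by 1.52 and 1.74, and Foxm1 by 0.89 with Aβ40 fibrils.

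Some of these calls were lost when single libraries were left out. With Aβ42 fibrils the value of Mki67 was 0.39 (adjusted p = 0.117) without untreated astrocyte replicate 2, which stands apart from its group, and 0.63 (adjusted p = 0.082) without Aβ42 microglia replicate 1, and 5 other libraries and a replicate block (adjusted p = 0.0817) also ended the call. Prc1 and Mcm4 were lost without any 1 of 7 libraries (adjusted p up to 0.116 and 0.117), Mcm4 also with DESeq2 size factors (adjusted p = 0.0583), library totals (adjusted p = 0.0625) and a replicate block (adjusted p = 0.0575), and Hjurp without 1. With Aβ40 fibrils Pcna was lost without any 1 of 5 libraries and Ccnb1 without any 1 of 4 (adjusted p up to 0.084 and 0.128), and Foxm1 and Tk1 without 1 each.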

How the results depend on the processing

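Each count of called genes and each phase median was recomputed under the alternatives. The direction of every phase median in the 4 comparisons of fibrils with control was kept under all alternatives run. Panel genes that fell with Aβ42 and Aβ40 fibrils numbered 41 to 43 and 42 to 44 in astrocytes and 37 to 44 and 29 to 38 in microglia, and wider genes 73 to 83 and 73 to 82 in astrocytes and 45 to 67 and 33 to 54 in microglia, under all alternatives but a 2-fold minimum. That minimum left 25 (Aβ42) and 18 (Aβ40) panel genes and 32 and 23 wider genes lower in microglia, and 2, 1, 4 and 3 higher ones. Single rises were less stable. In astrocytes with Aβ42 fibrils 1 panel gene rose with DESeq2, with no filter and without some libraries (0 to 1), and with Aβ40 fibrils 0 rose with a 2-fold minimum, library totals, 10 counts in every library, a replicate block or the compared groups alone (0 to 1 without single libraries). Wider genes that rose there numbered 1 with 10 counts in every library, and 2 to 4 without single libraries for Aβ42.

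Astrocyte panel genes that differed between fibrils numbered 1 higher and 1 lower with DESeq2 and 1 higher and 2 lower with the compared groups alone, with 1 wider gene higher in both. In microglia that comparison was the most dependent on the processing. Panel genes called higher and lower were 0 and 1 at 2-fold, 1 and 7 with DESeq2, 1 and 2 with the replicate block and 0 and 1 with the compared groups alone, and ran from 0 to 7 and from 1 to 14 without single libraries. Wider genes were 0 and 0 at 2-fold, 11 lower with DESeq2, 0 and 4 with the block, 0 and 1 with the compared groups alone, and 0 to 13 and 1 to 25 without single libraries. The median of its G1 genes ran from -0.057 to 0.15.

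For the difference between cell types, a 2-fold minimum left 19 panel genes higher with Aβ40 fibrils and 2 wider genes lower with each fibril, and lower panel genes ran from 1 to 3 and lower wider genes from 3 to 6 without single libraries. Between untreated cultures it left 12 panel genes lower, and 3 wider genes higher and 12 lower, with 9 wider genes higher under library totals. Requiring 10 counts in every library moved medians to -0.38 (G1, microglia, Aβ40), 1.32 (mitosis, difference between cell types, Aβ40) and -0.34 (G1, untreated cultures), and library totals moved the untreated medians to -0.85, -0.55 and -1.20. Without single libraries the medians ran from -1.52 to -1.34 (S phase, astrocytes, Aβ42), -2.54 to -2.42 (mitosis, Aβ42), -2.18 to -2.06 (mitosis, Aβ40) and -0.49 to -0.35 (G1, microglia, Aβ40), and wider genes that rose in microglia with Aβ40 from 4 to 8. The causes were not tested. Signs turned only for changes that did not pass the test. In astrocytes with Aβ42 fibrils, Tyms was 0.00056 with DESeq2 size factors, 0.018 with no filter, 0.0074 with the replicate block, 0.0022 with the compared groups alone and -0.15 to 0.091 without single libraries. Without single libraries Ccnd1 ran from -0.089 to 0.017, Ccnd3 from -0.044 to 0.76 and Cdk4 from -0.44 to 0.11 (with Aβ40 fibrils from -0.52 to 0.025). In microglia with Aβ42 fibrils such ranges were -0.13 to 0.065 for Ccnd3, -0.27 to 0.026 for Cdkn1b, -0.18 to 0.093 for Gins2 and -0.064 to 0.063 for Mcm7, which was 0.0058 with DESeq2, 0.0016 with 10 counts in every library and 0.0069 with the compared groups alone. With Aβ40 fibrils, library totals and no filter gave -0.019 and -0.0090 for Cdk2 and -0.014 and -0.0065 for Mcm7, and single libraries ranges of -0.038 to 0.064 and -0.045 to 0.069.

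Equal replicate numbers did not mark pairs. The deviations of same-numbered libraries correlated at -0.53 to 0.36 in astrocytes and -0.19 to 0.22 in microglia. Those of differently numbered libraries did so at -0.46 to 0.53 and -0.21 to 0.23. In astrocytes, untreated replicate 2 correlated with Aβ42 replicate 3 (0.53) and Aβ40 replicate 1 (0.49), which correlated with each other (0.51). A block by replicate number does not cover such a link, and whether these libraries share a batch was not tested. That block left 41 and 42 panel genes lower in astrocytes and 41 and 34 in microglia. Microglia libraries with 2271834 to 5098145 counts on genes limit what can be seen of low genes such as Cenpa.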

Other observations

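Cdkn1a is a target of p53, and 13 other p53 target genes that passed the count filter are given here as values. In microglia 9 of the 13 rose and 1 fell with Aβ42 fibrils, and 7 rose and 1 fell with Aβ40 fibrils, where 27.1% and 19.6% of all tested genes rose. Plk2, a kinase of the polo family, went from 43.6, 43.7 and 42.2 CPM to 327, 272 and 278 CPM with Aβ42 and 270.5, 285 and 328 CPM with Aβ40 fibrils (2.75 ± 0.12 and 2.77 ± 0.12). Gadd45a, a growth arrest gene, rose by 1.62 and 1.38, and Mdm2, the ubiquitin ligase of p53, by 0.82 and 0.83. Sesn1 was the gene that fell, by 2.13 and 2.35. In astrocytes 2 of the 13 rose (Plk2 by 0.53 and 0.38, Aen by 1.07 and 0.85) and Sesn1 fell by 0.99 and 0.82 with Aβ42 and Aβ40 fibrils, and Mdm2 had changes of 0.11 and 0.12 that did not pass the test. Of all tested genes 16.5% and 14.9% rose there, so the 2 of 13 are near the share of all genes.

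In the wider list, promoters of mitosis genes held the CHR in 38 of 49 genes with an entry (77.6%) and those of S phase genes the E2F site in 15 of 36 (41.7%), beside 12.8% and 4.11% of the promoters of genes tested in both cell types. G1 genes of the wider list held the CHR in 6 of 14 (42.9%) and the E2F site in 4 of 14 (28.6%). The 7 G1 genes of the panel with an entry held neither. In the last 200 bases before the start alone, the CHR stood in 29 of 49 mitosis genes of the wider list (59.2%, beside 8.65%). The E2F site stood in 6 of 36 of its S phase genes there (16.7%, beside 2.81%).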
